A study of Homo sapiens with 9 samples.

Results

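The zinc importers of the ZIP family (gene symbols SLC39A) were examined in MDA-MB-231 cells exposed to TEPA, through 10 members chosen by name: SLC39A1, SLC39A3, SLC39A4, SLC39A6, SLC39A7, SLC39A8, SLC39A9, SLC39A10, SLC39A13 and SLC39A14. These are 10 of the 59453 gene names in the count table, and all 10 passed the filter on low counts. MDA-MB-231 is an established human triple-negative breast cancer line, so every library comes from one line. TEPA is a polyamine that chelates copper. RNA was sequenced from 3 groups of 3 replicates each: untreated cells, cells given TEPA for 8 h and cells given TEPA for 24 h. The labels state 8 mM TEPA, while the sequencing section of the study's methods gives a lower concentration and its general treatment section lists both, and the deposited counts do not settle which was used. One untreated group was the control for both times, and the general treatment section gives 24 h for all doses, the untreated included. No untreated 8 h group was analysed here, so at 8 h the effect of TEPA and that of time in culture cannot be told apart, and both comparisons with untreated cells share the same control libraries. Nothing states that the replicates were separate cultures, so the p-values measure the spread between these libraries, which may be technical.

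ZIP proteins move zinc into the cytosol, either from outside the cell or out of intracellular stores, while most ZnT proteins (SLC30A) move it the other way and metallothioneins bind it. Zinc-loaded MTF1 switches on metallothionein genes and SLC30A1 by binding metal response elements, short DNA motifs with a TGC core, and it has been reported to hold back SLC39A10. Most members belong to the LIV-1 subfamily, named after the estrogen-induced breast cancer gene LIV-1 that is now SLC39A6, while SLC39A1, SLC39A3 and SLC39A9 lie outside it. SLC39A8 and SLC39A14 also carry manganese and iron.

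SLC39A10 stood out in these cells. Its transcript was 2.17-fold higher after 8 h of TEPA and 2.44-fold higher after 24 h. SLC39A8 and SLC39A3 were higher at both times by less than 1.29-fold. SLC39A6 (1.30-fold), SLC39A9 (1.23-fold) and SLC39A7 (1.095-fold) were higher at 24 h. The 24 h calls of SLC39A3 (1.09-fold) and SLC39A7 were lost when untreated replicate 3 was left out. No member was called lower than in untreated cells at either time, but SLC39A11, a tested ZIP gene outside the members, was called lower at both (log2 fold changes of -0.74 and -0.64). SLC39A4, SLC39A13 and SLC39A14 were called in no comparison.

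Library totals ran from 34633755 to 49342659 counts, and 16556 genes were tested with edgeR's quasi-likelihood test. TMM factors, which rescale library sizes, were 0.977 to 0.997 in untreated and 8 h libraries and 1.02 to 1.04 in 24 h libraries. The labelled line was checked against its markers: VIM (116585 to 177422 counts), CD44, AXL, KRT8 and KRT18 were abundant, PGR was at 0 in every library and ESR1 had at most 9 counts. Of the 4 other genes listed as low in this line, EPCAM had 36 to 71 counts and CDH1 10 to 144, but GATA3 had 403 to 721 and ERBB2 1911 to 3532. CDH1 and GATA3 were called higher at 24 h (log2 fold changes of 2.33 and 0.42) and ERBB2 lower (-0.62). Of 6 markers of leukocytes, macrophages, endothelium and liver, CD3E was at 0 in every library and PTPRC, CDH5 and ALB had at most 5 counts. Their summed level was 3.08 to 4.53 CPM (counts scaled to library size, so that libraries can be compared) in untreated cells, 1.25 to 1.55 CPM at 8 h and 7.47 to 9.17 CPM at 24 h, of which PECAM1, shared by endothelium and platelets, made up 3.59, 1.06 and 8.13 CPM on average. CD68 had at most 15 counts, and the endothelial marker CDH5 stayed at 3 counts or fewer. The part of PECAM1-bearing cells in the results below was not tested.

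The promoters of the members are shown because SLC39A10 moved in the opposite direction to the genes that MTF1 is known to activate. That choice followed from the observed fold changes. MTF1 activity and binding were not measured, and a part of MTF1 in these changes was not tested. Windows from 250 bases before to 50 after annotated start sites (RefSeq, GRCh38.p14) were searched on both strands for the core of a metal response element, spelled TGCACNC or TGCGCNC. SLC39A4 and SLC39A14 were not searched, which leaves 14 windows for 8 of the 10 members. The motif was found in 6 of those windows, 1 each for 6 members, against 29.6% of 35116 windows of all genes. Each line below gives the match in capitals with 10 bases on either side, written 5′ to 3′ on the strand that carries it, with its position relative to the start site.
SLC39A10, chr2:195657249-195657275, plus strand, at +34: ggagaggagaTGCACACggcactcgag
SLC39A8, chr4:102345585-102345611, minus strand, at -119: ccggcggtccTGCGCCCcggcgtggac
SLC39A3, chr19:2740188-2740214, minus strand, at -128: gcttggtggcTGCGCCCgccgctcagc
SLC39A6, chr18:36129341-36129367, minus strand, at -17: cccgcggcgcTGCGCGCggcggtaatt
SLC39A13, chr11:47408405-47408431, plus strand, at -175: caaacggaagTGCGCCCtctacccggg
SLC39A1, chr1:153963757-153963783, minus strand, at -236: cctccacagaTGCGCCCcagggcccca
The exporter SLC30A1, a textbook MTF1 target, is shown for comparison with its 2 matches:
SLC30A1, chr1:211579194-211579220, plus strand, at -49: aactttgcttTGCACTCggaacccccg
SLC30A1, chr1:211579121-211579147, plus strand, at +25: ccacggcagcTGCACTCggcccggtct
Among these members only SLC39A10 carried the TGCAC form that SLC30A1 carries. It lay downstream of the start site, as did the matches at +25 in SLC30A1 and +31 in MT2A. The SLC39A10 match was on the strand of its gene, while the SLC30A1 matches, at -49 and +25, were on the strand opposite the gene. The windows of MT2A and MT1X held both the TGCAC and the TGCGC form. The share of all windows with the TGCAC form alone was not counted, so the form does not set SLC39A10 apart. No match was found in the windows of SLC39A7 or SLC39A9, which says only that these letters are not there. Metallothionein windows held more matches, 8 in MT2A and 4 in MT1X, where 2.3% of all windows held 3 or more. A match is a string of letters and not a measured binding site.

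In untreated cells the members spanned a wide range of levels. Levels are compared between genes as CPM per kb of exon, on TMM-scaled library sizes. SLC39A7, which releases zinc from the endoplasmic reticulum, was the highest at 42.5 ± 1.78 CPM per kb (SD, n = 3). SLC39A6 followed at 23.9 ± 0.30 and SLC39A13, a transporter of the early secretory pathway, at 22.6 ± 0.06, and their libraries did not overlap. SLC39A14 (12.5 ± 0.23), SLC39A9 (10.6 ± 0.27), SLC39A10 (10.3 ± 0.23) and SLC39A3 (9.13 ± 0.20) formed a middle range in which SLC39A9 and SLC39A10 overlapped. SLC39A8 (4.87 ± 0.21), SLC39A4 (2.72 ± 0.07) and SLC39A1 (1.12 ± 0.13) were the lowest. The order depends on the length used: per kb of coding sequence SLC39A7 was still first, but SLC39A13 and SLC39A9 came next, SLC39A6 had rank 6 and SLC39A10 rank 8.

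**Figure D1:**
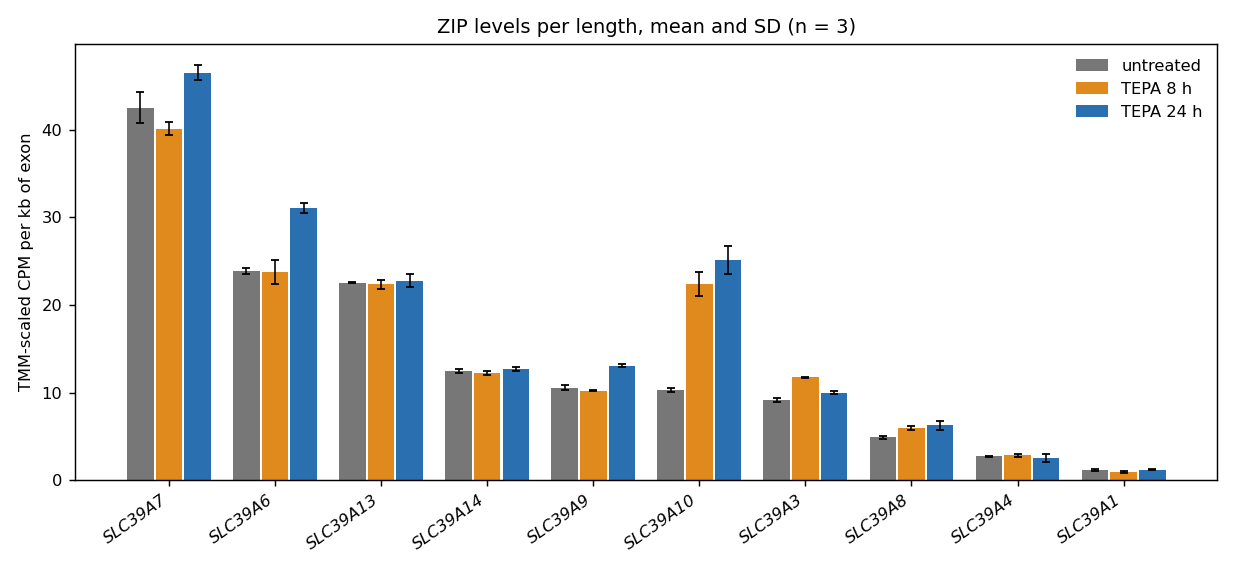
Transcript level of each ZIP gene per length, in TMM-scaled CPM per kb of exon, for untreated cells (grey), TEPA 8 h (orange) and TEPA 24 h (blue). Bars are means of 3 libraries and error bars are SD. SLC39A10 went from 10.3 to 22.3 and 25.1 CPM per kb, while SLC39A7 remained the highest in each group.

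With TEPA, SLC39A10 moved up this order. From rank 6 of 10 it went to rank 4 at 8 h (22.3 ± 1.38 CPM per kb) and rank 3 at 24 h (25.1 ± 1.56). Its libraries overlapped those of SLC39A6 and SLC39A13 at 8 h, and those of SLC39A13 at 24 h, so the ranks among these neighbours are not separated by the spread. Per kb of coding sequence it went from rank 8 to rank 4 at both times. It made up 7.35% ± 0.19 of the members' summed level per kb of exon in untreated cells, 14.6% ± 0.77 at 8 h and 14.7% ± 0.88 at 24 h. The sum itself was 140 ± 2.32 CPM per kb untreated, 152 ± 1.41 at 8 h and 171 ± 0.36 at 24 h.

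The number of members called was read against the share of all genes called. At 8 h, 3 of 10 members were higher and 0 lower at an adjusted p under 0.05, where 25.2% of all genes tested were higher and 24.5% lower. At an unadjusted p under 0.05, 2 members (SLC39A1 and SLC39A7) were lower at 8 h, and DESeq2 called 0 lower. At 24 h, 6 members were higher and 0 lower, against 25.7% and 26.8% of all genes, and 0 were lower at an unadjusted p or by DESeq2. From 8 h to 24 h, 5 members rose and 1 fell, against 26% and 28.8%. With a log2 fold change over 0.5 asked for as well, 1 member was left at each time, SLC39A10, where 10.1% of all genes were that much higher at 8 h and 10.2% at 24 h. The median log2 fold change of the 10 members was -0.01 at 8 h, 0.13 at 24 h and 0.12 from 8 h to 24 h, beside medians between -0.02 and 0.00 over all genes. The 8 h and untreated libraries did not overlap in 3 members that were higher and 2 that were lower, where 29.2% and 28.6% of all genes were so. At 24 h this held for 6 members that were higher and 0 that were lower, beside 28.4% and 28.9% of all genes.

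**Figure D2:**
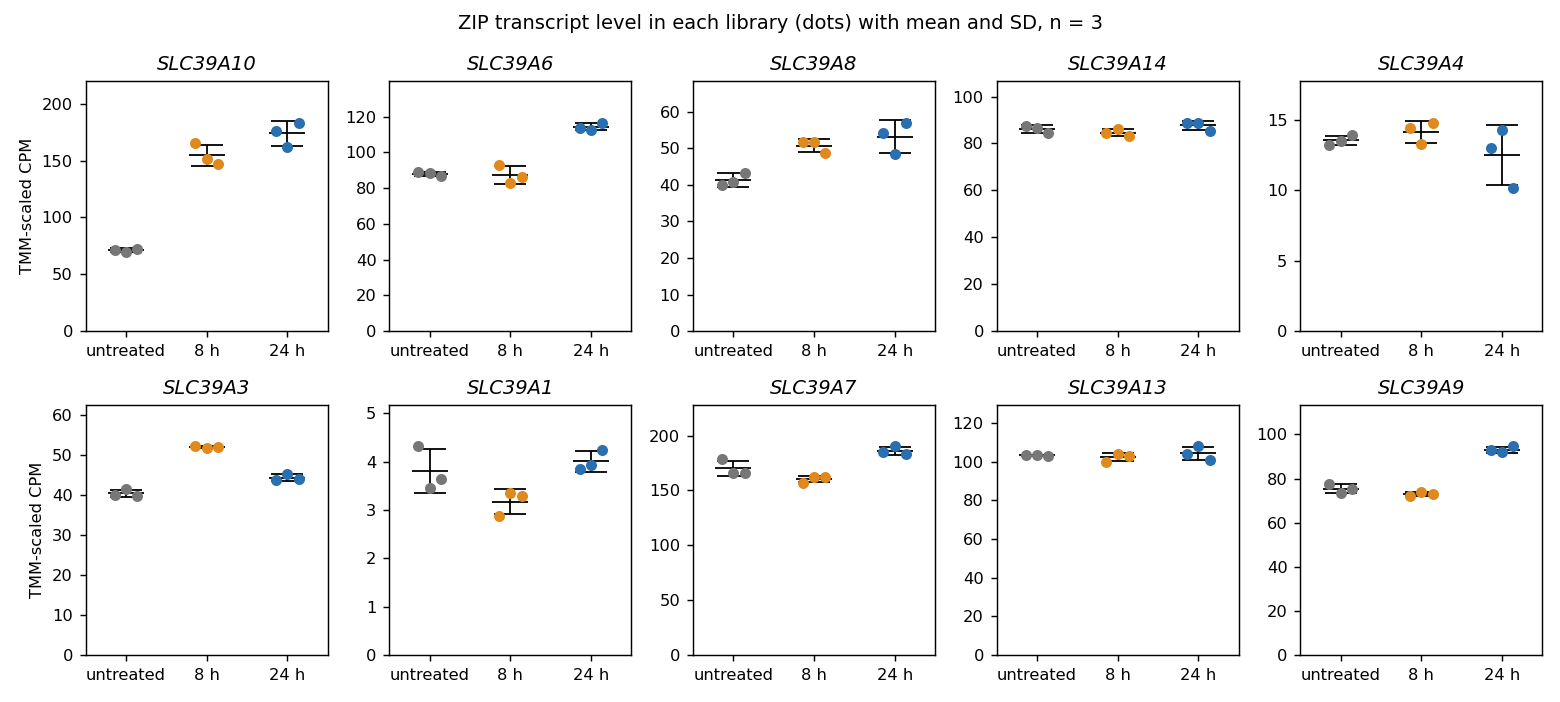
TMM-scaled CPM of each ZIP gene in every library (dots), with the mean and SD of the 3 libraries of a group. Each panel has its own vertical axis, starting at 0. The SLC39A10 libraries with TEPA sit between 147 and 183 CPM, above the untreated ones at 69.5 to 72.6 CPM, while SLC39A6 and SLC39A9 are raised in the 24 h libraries.

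SLC39A10 (chr2:195575977-195737702, plus strand, GENCODE v44 on hg38), a plasma membrane importer, was at 71.5, 69.5 and 72.6 CPM in untreated replicates 1 to 3. It was at 165, 151 and 147 CPM after 8 h of TEPA and at 176, 162 and 183 CPM after 24 h. Every TEPA library was above every untreated one, and the libraries of the 2 TEPA times overlapped. The log2 fold change was 1.12 at 8 h (standard error 0.05, adjusted p = 5.27e-10, edgeR) and 1.29 at 24 h (standard error 0.05, adjusted p = 3.84e-11). These placed SLC39A10 at rank 596 at 8 h and rank 366 at 24 h when the 16556 genes were ordered from the highest log2 fold change. The further rise from 8 h to 24 h was small, at 0.17 (95% interval 0.06 to 0.28, adjusted p = 0.00904), and without TEPA 8 h replicate 3 it was 0.14 with an adjusted p of 0.0505.

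SLC39A6 (chr18:36108531-36129385, minus strand), which is known to form a heteromer with SLC39A10 in the plasma membrane, did not follow it at 8 h. Its untreated libraries were at 88.9, 88.2 and 86.7 CPM, those at 8 h at 92.8, 82.9 and 86.5 CPM and those at 24 h at 114, 113 and 117 CPM. The 8 h libraries surrounded the untreated ones, and all 24 h libraries lay above both groups. The log2 fold change was -0.01 at 8 h (95% interval -0.10 to 0.08, adjusted p = 0.884) and 0.38 at 24 h (standard error 0.04, adjusted p = 2.04e-06). The difference between 24 h and 8 h was 0.39 (adjusted p = 1.48e-06). Of its exon bases, 6.16% are shared on the same strand with another gene model.

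SLC39A7 (chr6:33200305-33204439, plus strand), the zinc release channel of the endoplasmic reticulum, was at 178, 166 and 166 CPM untreated, 157, 163 and 162 CPM at 8 h and 185, 190 and 183 CPM at 24 h. Its 8 h libraries were the lowest and its 24 h libraries the highest, without overlap. The log2 fold change was -0.08 at 8 h (95% interval -0.16 to 0.00, adjusted p = 0.0837), 0.13 at 24 h with an adjusted p of 0.0089, and 0.21 from 8 h to 24 h (adjusted p = 1.95e-04). Without untreated replicate 3 the 24 h value was 0.11 with an adjusted p of 0.0543, and without untreated replicate 2 the 8 h value was called lower (-0.11, adjusted p = 0.0454).

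**Figure D3:**
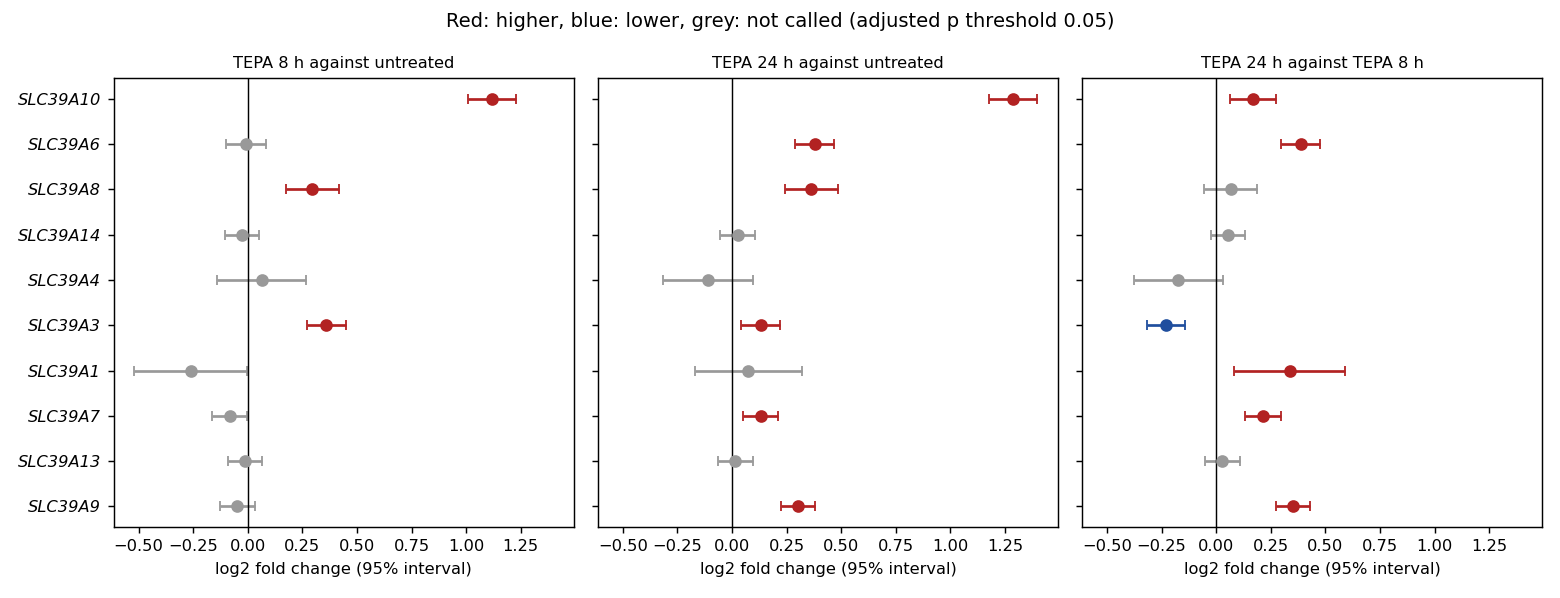
Log2 fold change of each ZIP gene with its 95% interval, for TEPA 8 h against untreated, TEPA 24 h against untreated and TEPA 24 h against TEPA 8 h (edgeR). Red marks genes called higher, blue lower and grey not called. SLC39A10 is alone beyond 1 in both comparisons with untreated cells, and SLC39A3 is the one member in blue, in the comparison of the 2 times.

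SLC39A8 and SLC39A14 are the members that also take up manganese and iron. SLC39A8 (chr4:102251080-102431258, minus strand) was at 39.8, 40.8 and 43.3 CPM untreated, 51.8, 51.7 and 48.7 CPM at 8 h and 54.2, 48.3 and 56.9 CPM at 24 h. All TEPA libraries were above the untreated ones and the TEPA times overlapped. Its log2 fold change was 0.30 at 8 h (standard error 0.06, adjusted p = 5.5e-04) and 0.36 at 24 h (standard error 0.06, adjusted p = 6.96e-05), and 0.07 from 8 h to 24 h (adjusted p = 0.337). SLC39A14 (chr8:22367278-22434129, plus strand) lay between 83.2 and 88.8 CPM in all 9 libraries.

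SLC39A3 (chr19:2732204-2740028, minus strand), a plasma membrane importer closely related to SLC39A1, was the member called higher at 8 h than at 24 h. It was at 40.0, 41.4 and 39.8 CPM untreated, 52.1, 51.7 and 51.9 CPM at 8 h and 43.6, 45.3 and 43.9 CPM at 24 h. The 3 groups did not overlap. The log2 fold change was 0.36 at 8 h (standard error 0.04, adjusted p = 3.67e-06) and 0.13 at 24 h (standard error 0.04, adjusted p = 0.0147), with a fall of 0.23 between them (log2 fold change -0.23, adjusted p = 1.98e-04). SLC39A3 was no longer called at 24 h when untreated replicate 3 (0.12, adjusted p = 0.0639) or TEPA 24 h replicate 2 (0.11, adjusted p = 0.0512) was left out, or when low counts were not filtered (0.13, adjusted p = 0.0637). Another gene model shares 9.39% of its exon bases on the same strand.

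SLC39A1 (chr1:153959099-153968184, minus strand), generally regarded as a widely expressed importer of the plasma membrane, had 115 to 196 counts in a library. It was at 4.32, 3.46 and 3.65 CPM untreated, 2.87, 3.34 and 3.29 CPM at 8 h and 3.84, 3.94 and 4.25 CPM at 24 h. The 8 h libraries were below the others, and the untreated and 24 h libraries overlapped. Its log2 fold change was -0.26 at 8 h (95% interval -0.52 to 0.00, adjusted p = 0.0859), 0.08 at 24 h (adjusted p = 0.614) and 0.34 from 8 h to 24 h (adjusted p = 0.0257). The rise between the TEPA times was not called on leaving out TEPA 8 h replicate 1 (0.27, adjusted p = 0.101) or TEPA 24 h replicate 3 (0.30, adjusted p = 0.0792), nor by DESeq2 (0.35, adjusted p = 0.0627), and without untreated replicate 2 the 8 h value was called lower (-0.34, adjusted p = 0.0452). In GENCODE v44, 60.8% of its exon bases lie on the same strand as exons of a readthrough gene, ENSG00000285779, and the counting tool by default leaves out reads that fall on exons of more than one gene. The level of SLC39A1 is therefore a low estimate if the annotation used by the authors held that gene, and its part in the low count was not tested.

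SLC39A9 (chr14:69398015-69462390, plus strand), a transporter of the Golgi and plasma membrane, was at 77.5, 73.6 and 75.4 CPM untreated, 72.3, 73.8 and 73.0 CPM at 8 h and 92.8, 92.0 and 94.6 CPM at 24 h. Only its 24 h libraries stood apart. The log2 fold change was -0.05 at 8 h (95% interval -0.13 to 0.03, adjusted p = 0.318), 0.30 at 24 h (standard error 0.04, adjusted p = 5.13e-06) and 0.35 from 8 h to 24 h (adjusted p = 1.02e-06). SLC39A9, SLC39A6 and SLC39A7 were each called at 24 h and not at 8 h, and the difference between the times was itself called for all 3.

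For 3 members no difference was called in any comparison. SLC39A13 (chr11:47407132-47416496, plus strand) lay between 99.9 and 108 CPM in the 9 libraries, with log2 fold changes of -0.01 at 8 h (95% interval -0.09 to 0.07) and 0.01 at 24 h (-0.06 to 0.09). For SLC39A14 the values were -0.03 (95% interval -0.11 to 0.05) and 0.03 (-0.05 to 0.10). SLC39A4 (chr8:144409742-144416844, minus strand), the intestinal zinc importer whose loss causes acrodermatitis enteropathica, was at 10.2 to 14.8 CPM, and its wider intervals were -0.14 to 0.27 at 8 h and -0.31 to 0.10 at 24 h. Its lowest library was TEPA 24 h replicate 3, and without TEPA 24 h replicate 2 it was called lower at 24 h than at 8 h (-0.28, adjusted p = 0.0256).

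Of the 4 other ZIP genes, SLC39A2, SLC39A5 and SLC39A12 had at most 9 counts in a library and were not tested. SLC39A11, a ZIP protein reported at the Golgi, was the one ZIP gene called lower than in untreated cells. It was at 18.7, 15.8 and 17.0 CPM untreated, 10.5, 9.56 and 10.6 CPM at 8 h and 10.6, 11.5 and 10.9 CPM at 24 h, with log2 fold changes of -0.74 (adjusted p = 1.3e-06) and -0.64 (adjusted p = 3.72e-06). The untreated libraries were above all those with TEPA.

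The genes listed as zinc exporters and those that bind zinc are given as the setting of the importers. The list goes by family, and not every gene in it need move zinc out of the cytosol. Of 11 genes listed as exporters, 7 were tested. At 8 h 0 were higher and 3 lower, where 24.5% of all genes were lower. At 24 h 0 were higher and 5 lower, where 26.8% were. At an unadjusted p, 0 were higher at either time, and the medians were -0.27 and -0.24 on the log2 scale. SLC30A1, the exporter of the plasma membrane, was at 59.8, 65.8 and 71.3 CPM untreated, 34.9, 30.6 and 30.8 CPM at 8 h and 29.8, 28.3 and 34.4 CPM at 24 h. SLC30A1 fell by 1.03 on the log2 scale after 8 h and by 1.09 after 24 h (adjusted p-values of 4.44e-08 and 1.05e-08), so that it was lower by about as much as SLC39A10 was higher. SLC30A3 and SLC30A4, which fill vesicles with zinc, were at -0.27 and -0.16 at 8 h, where neither was called, and at -0.89 and -0.60 at 24 h (adjusted p = 1.26e-04 and 9.24e-04).

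Of 13 listed genes, the metallothioneins and MTF1, 4 were tested. MT2A, MT1X and MT1E were lower at both times. The study took MT1X as a stand-in for copper inside the cell and reported its fall with TEPA by real-time PCR. These genes are therefore not a measure of zinc alone. MT2A was at 218, 204 and 248 CPM untreated, 93.3, 108 and 101 CPM at 8 h and 68.8, 86.1 and 65.9 CPM at 24 h, with log2 fold changes of -1.15 (adjusted p = 6.06e-08) and -1.60 (adjusted p = 9.7e-10). MT1X was at -1.06 and -1.84 and MT1E at -1.30 and -2.39, and all 3 fell further between 8 h and 24 h. Metallothionein genes are near copies of one another, so how reads were shared among them is uncertain. MTF1 itself had values of -0.03 (adjusted p = 0.645) and 0.22 (adjusted p = 5.85e-04), so it was called higher after 24 h and not after 8 h.

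**Figure D4:**
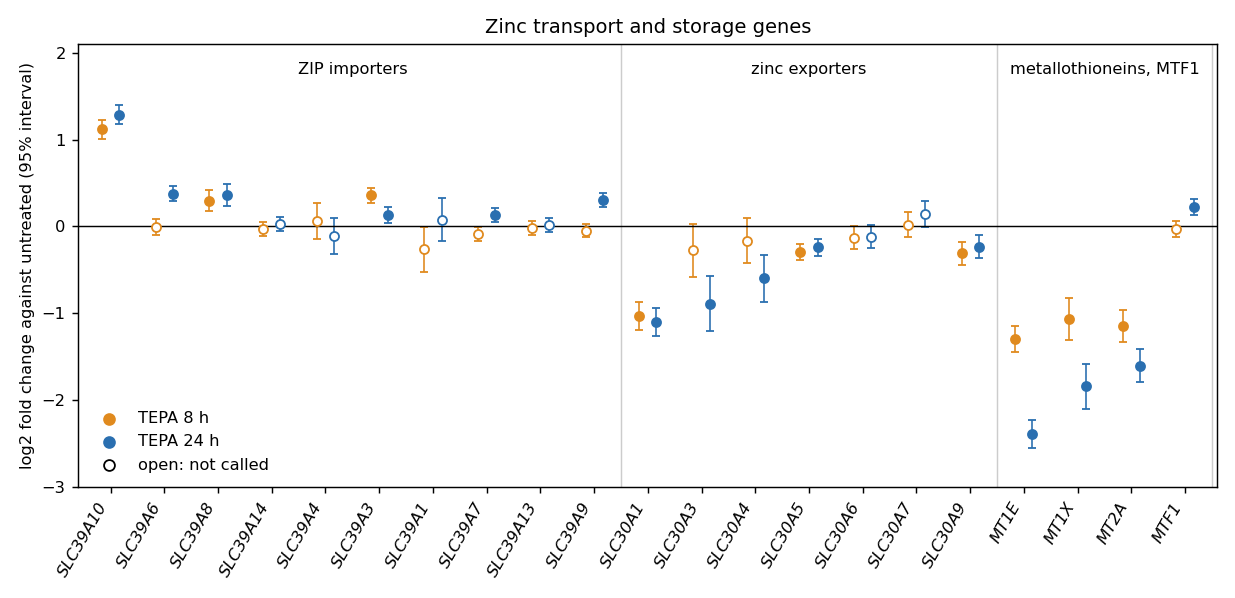
Log2 fold change against untreated cells, with 95% intervals, of the ZIP importers, the tested zinc exporters and the tested metallothioneins with MTF1, at TEPA 8 h (orange) and TEPA 24 h (blue). Filled points were called and open points were not. SLC39A10 lies at 1.12 and 1.29, SLC30A1 at -1.03 and -1.09, and MT2A at -1.15 and -1.60.

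The genes with the course most like SLC39A10 and SLC39A6 were found by the root mean square difference of centred log2 CPM over the 9 libraries, among 11919 genes with a mean of at least 100 counts. For SLC39A10 they were GDAP1 (0.09), a mitochondrial outer membrane protein, ZNF483 (0.09), a zinc finger protein, and TRMT10A (0.10), a tRNA methyltransferase, whose log2 fold changes were 0.94 to 1.12 at 8 h and 1.16 to 1.30 at 24 h. For SLC39A6 they were C6orf120 (0.04), SEC22B (0.04), a SNARE protein between the endoplasmic reticulum and Golgi, and RCN2 (0.04), a calcium-binding protein of the endoplasmic reticulum. Their log2 fold changes were -0.04 to 0.02 at 8 h and 0.34 to 0.40 at 24 h. The likeness is over libraries of one line that share their untreated group.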

How the data were processed

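RNA-Seq libraries of MDA-MB-231 cells were made with a stranded mRNA kit and read from both ends. According to the labels and methods, the authors checked reads with FastQC, aligned them to hg38 with HISAT2 and counted read pairs over exons per gene name with featureCounts, with strand used; versions are not given in the sources used here. The deposited values are raw counts with no normalization, and 0 columns were left out. Reads on exons of more than one gene are not counted by default, which can lower genes that share exons.

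In R 4.3.3, genes were kept by filterByExpr of edgeR 4.0.16 (minimum count 10), which left 16556 genes with 99.95% of the counts, and TMM factors scaled library sizes. All 9 libraries entered one quasi-likelihood fit with a mean per group. The Benjamini-Hochberg adjustment ran over every gene in the fit, and a gene was called at an adjusted p under 0.05. Standard errors and 95% intervals were derived from the log2 fold change and F. Exon and coding lengths come from GENCODE v44 on hg38, which is not the release the authors counted with, and promoter windows from RefSeq. The procedure was also run on simulated counts, in which far fewer genes changed than were called in these data. That run does not bear on the shares of genes called here. Alternatives were DESeq2 1.42.0, upper-quartile and RLE factors, other filters, a log2 limit of 0.5, a replicate block, a fit of only the groups compared, mitochondrial genes left out of library sizes, and leaving out each library.

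The members and lists were chosen with earlier results of these data known. Named are all members and, of each other list, the 3 genes past the test at either time with the largest log2 fold change, beside SLC30A1, MT2A, MT1X, MTF1, STAT3 and the genes most like the 2 members with the largest log2 fold change. TFRC and the markers were named after their values were seen.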

Additional observations from a re-analysis of the deposited data

Results flagged for a closer look

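The level of 6 members differed between the TEPA 24 h and TEPA 8 h libraries, by the test of the difference itself (24 h against 8 h in edgeR). Without an untreated group for each time, a change in the effect of TEPA cannot be told apart from time in culture. In log2 units the level at 24 h minus that at 8 h was 0.39 for SLC39A6, 0.35 for SLC39A9, 0.34 for SLC39A1, 0.21 for SLC39A7, 0.17 for SLC39A10 and -0.23 for SLC39A3. The shares of all genes called in this comparison were 26% higher and 28.8% lower. SLC39A1 and SLC39A10 are the 2 of these whose call was lost on leaving out a single library. Of the markers of other cell types, PECAM1 moved between the same libraries, at a log2 fold change of 2.94 from 8 h to 24 h. CD68 was not called (-0.57, adjusted p = 0.282, edgeR), and CDH5, PTPRC and CD3E were at or near 0. The part of PECAM1 in the result was not tested.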

How the results depend on the processing

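SLC39A10 kept its direction and its call at 8 h and 24 h under all 17 alternatives. Its log2 fold changes ran from 1.06 to 1.15 and from 1.25 to 1.34. The alternatives covered the members, the genes named from the other lists, MTF1, STAT3 and TFRC, and no called value of these changed sign. The markers of the line and of other cell types, and the genes most like a member, were not run under the alternatives. A log2 limit of 0.5 left 1 member higher at 8 h, 1 at 24 h, and 0 higher and 0 lower from 8 h to 24 h. Leaving out 1 library gave 0 to 2 members lower at 8 h, 4 to 6 higher at 24 h (4 without untreated replicate 3), and 4 to 6 higher and 1 to 2 lower from 8 h to 24 h. SLC39A7 made up 30.3% of the members' summed level per kb of exon in untreated cells and 24.0% per kb of coding sequence, because the lengths differ. Without untreated replicate 3 and TEPA 8 h replicate 2, respectively, STEAP3 (adjusted p = 0.0507) and FTH1 (0.069) lost their call at 8 h, and SLC30A4 lost its call from 8 h to 24 h without TEPA 8 h replicate 2 (0.0593) or TEPA 24 h replicate 1 (0.0661). IL6 was called higher at 24 h without untreated replicate 1 (0.55, adjusted p = 5.28e-05) and with no filter (0.27, 0.00251). From 8 h to 24 h SLC39A8 was called without TEPA 24 h replicate 2 (0.13, 0.0437). The cause was not tested for any of these. With the replicate block, 3 members were higher at 8 h and 6 at 24 h, and SLC39A10 was at 1.12 and 1.29. Same-numbered libraries deviated together, at a correlation over 0.1, in 1 of 9 pairs (correlations from -0.25 to 0.18). Differently numbered libraries did so in 7 of 18 pairs (-0.376 to 0.325). Deviations were taken from the mean of each group of 3, so these correlations cannot settle whether the numbers pair the samples. Replicates differed by more than counting noise in every pair, most between untreated replicates 1 and 2.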

Other observations

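Genes reported in the literature to act on ZIP transcripts or proteins (cytokine, hypoxia, stress and casein kinase 2 genes) were described as a list of 13, all tested. At 8 h 0 were higher, also at an unadjusted p, and 7 lower, where 25.2% of all genes were higher and 24.5% lower. At 24 h 2 were higher and 6 lower, beside 25.7% and 26.8% of all genes. The list's median on the log2 scale was -0.14 and then -0.04. IL6, an inducer of SLC39A14 in liver, was at 15.3 ± 4.98 CPM in untreated cells (SD, n = 3), and at 8.09 ± 0.64 and 18.4 ± 1.44 CPM after 8 h and 24 h. This was a log2 fold change of -0.91 at the earlier time (adjusted p = 2.72e-04, edgeR) and of 0.27 at the later (adjusted p = 0.147). The hypoxia factor EPAS1, reported to induce SLC39A8, was at -0.77 at 8 h and -0.24 at 24 h, and HIF1A at -0.40 and -0.23, all called. STAT3, reported to act on SLC39A6, was lower at 8 h (-0.15, adjusted p = 0.00409) and higher at 24 h (0.25, adjusted p = 4.24e-05).

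Of 8 genes of iron and manganese transport, 6 were tested, with 1 higher and 3 lower at 8 h and 1 higher and 4 lower at 24 h, to be read against the same shares of all genes. SLC40A1, the iron exporter, was at 11 to 53 counts and at log2 fold changes of -1.43 (adjusted p = 4.63e-04) and -1.05 (adjusted p = 0.00271). STEAP3, which reduces endosomal iron, was at -0.13 and -0.56, and the ferritin heavy chain FTH1 at -0.15 and -0.45, all called. The transferrin receptor TFRC was the gene that was higher, at 0.24 and 0.32.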
